A study of Homo sapiens with 6 samples.

Results

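Long intergenic noncoding RNAs carrying LINC symbols were described in hemogenic endothelium, an endothelium that gives rise to blood, grown with and without alpha lipoic acid. The members were chosen by symbol and count: a row of the count table whose symbol starts with LINC entered if it had at least 10 counts in all 3 lipoic acid libraries or in all 3 untreated libraries. This rule admitted 147 of the 908 LINC rows among 29436 rows. Of these members, 77 reached the minimum in all 6 libraries, 48 in the lipoic acid group alone and 22 in the untreated group alone. A further 571 LINC rows had no count in any library.

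The cells were differentiated on AGM-S3 stroma from H1, a widely used human embryonic stem cell line. The first group was induced in medium with alpha lipoic acid, an antioxidant and a cofactor of mitochondrial dehydrogenases, at 100 µg/ml, and the other in the same medium without it. On day 8, cells carrying CD34, KDR and CD144 and lacking CD43 were sorted in aliquots of 1000, and amplified polyA cDNA was sequenced in 3 libraries per group. The comparison asks which noncoding transcripts differ at this stage, in 1 cell line at 1 dose and 1 time.

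A long noncoding RNA is a transcript with no recognised protein product, usually spliced and polyadenylated like an mRNA. Those with LINC symbols were named because their genes lie between protein-coding genes. Some act on a neighbouring gene or on chromatin, some bind proteins or miRNAs, and most have no known role. Their levels are low and differ much between cell types.

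Total counts were 31404734 to 41351951 in lipoic acid libraries and 30041494 to 32034433 in untreated libraries. Lipoic acid libraries 1 to 3 and untreated library 1 had 99.1% to 99.3% even numbers among their nonzero counts, against 52% in untreated libraries 2 and 3. Library 2 of each group detected the fewest genes, 14901 with lipoic acid and 14668 untreated, and the fewest LINC rows, 210 and 188 in the same order. The gate genes CD34 (813 against 1451 CPM, counts scaled to library size) and CDH5, which encodes CD144 (556 against 864 CPM), were lower with lipoic acid. KDR was higher (4813 against 4115 CPM, adjusted p = 0.198 once a GC and length trend was removed). SPN, which encodes CD43, was at 0 throughout. Mitochondrially encoded genes held 4.39% to 5.02% of counts with lipoic acid and 2.45% to 2.82% untreated. The 8 endothelial markers summed to 9803 to 10125 CPM with lipoic acid and 11362 to 11437 CPM untreated. Of these markers 5 fell and 2, KDR and TEK, rose.

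The start regions of 6 members that changed are printed here because they are the largest or the most stable rises and falls with a listed promoter, or hold a motif searched for. Each runs 5′ to 3′ on the gene's strand, from 250 bases before to 50 bases after the start that RefSeq gives on GRCh38.p14. Capitals mark matches, on either strand, to the core of the antioxidant response element (TGACNNNGC), bound by NRF2, or to a forkhead site (TGTTTAC).
LINC00261 (chr20:22578593-22578892, minus strand): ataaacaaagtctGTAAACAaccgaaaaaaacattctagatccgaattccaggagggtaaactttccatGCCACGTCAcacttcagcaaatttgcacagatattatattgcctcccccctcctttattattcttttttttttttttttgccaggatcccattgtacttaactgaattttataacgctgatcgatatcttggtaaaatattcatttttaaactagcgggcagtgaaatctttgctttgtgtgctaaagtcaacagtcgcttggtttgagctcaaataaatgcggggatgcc
LINC01234 (chr12:113773634-113773933, minus strand): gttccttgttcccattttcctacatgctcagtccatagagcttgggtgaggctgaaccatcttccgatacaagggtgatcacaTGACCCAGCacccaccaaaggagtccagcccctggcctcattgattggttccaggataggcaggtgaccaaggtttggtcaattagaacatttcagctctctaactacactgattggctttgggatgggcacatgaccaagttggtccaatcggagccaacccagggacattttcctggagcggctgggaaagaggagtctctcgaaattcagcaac
LINC00294 (chr11:33075900-33076199, plus strand): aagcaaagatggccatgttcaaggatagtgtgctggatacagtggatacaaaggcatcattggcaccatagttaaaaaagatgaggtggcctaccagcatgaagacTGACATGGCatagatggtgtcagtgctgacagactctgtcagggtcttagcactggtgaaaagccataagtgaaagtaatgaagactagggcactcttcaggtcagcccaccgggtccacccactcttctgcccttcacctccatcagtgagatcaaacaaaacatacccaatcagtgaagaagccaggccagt
LINC00662 (chr19:27793891-27794190, minus strand): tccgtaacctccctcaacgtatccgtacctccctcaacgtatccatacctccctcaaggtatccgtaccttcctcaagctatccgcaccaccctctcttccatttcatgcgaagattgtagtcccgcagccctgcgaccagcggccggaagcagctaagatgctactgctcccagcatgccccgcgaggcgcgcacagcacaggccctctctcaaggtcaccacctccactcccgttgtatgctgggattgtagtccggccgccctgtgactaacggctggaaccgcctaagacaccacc
LINC00324 (chr17:8223994-8224293, minus strand): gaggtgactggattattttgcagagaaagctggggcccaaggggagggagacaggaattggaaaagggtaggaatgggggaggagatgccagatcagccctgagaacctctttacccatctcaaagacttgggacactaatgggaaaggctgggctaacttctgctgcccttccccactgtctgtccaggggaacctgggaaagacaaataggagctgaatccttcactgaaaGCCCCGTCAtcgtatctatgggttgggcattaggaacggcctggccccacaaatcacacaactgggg
LINC00847 (chr5:180830707-180831006, plus strand): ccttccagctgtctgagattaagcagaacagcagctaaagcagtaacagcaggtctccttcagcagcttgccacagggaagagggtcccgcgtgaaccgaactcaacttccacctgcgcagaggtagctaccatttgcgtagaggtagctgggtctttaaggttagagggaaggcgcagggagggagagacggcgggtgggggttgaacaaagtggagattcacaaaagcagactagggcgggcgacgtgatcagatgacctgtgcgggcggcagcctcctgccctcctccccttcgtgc
In LINC00261 the first capitals are the forkhead match and the second the response element match. The response element core was found in 3 of the 10 members that rose and have a listed promoter (LINC00261, LINC01234 and LINC00294) and in 1 of the 6 such members that fell (LINC00324). It occurred in 19 of the 92 members with a listed promoter (20.7%) and in 13.6% of all 27305 promoters. The forkhead site occurred in 6 of the 92 (6.52%) and in 3.41% of all promoters. The C/EBP-ATF element TGATGNAA was in 2.17% against 3.67%, and the E-box CACGTG in 6.52% against 7.43%. A match describes letters only.

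Among the 77 members with the minimum in all 6 libraries, the largest change was in LINC00261, which was 14.6-fold higher with lipoic acid. In all, 15 members rose, 12 fell and 50 did not pass the test (edgeR quasi-likelihood test, Benjamini-Hochberg adjusted p under 0.05 over all 13780 genes tested). Over all tested genes, 24.2% rose and 23.3% fell. Over the 12156 genes under the same minimum, 23% rose and 23.7% fell, against 19.5% and 15.6% of the members. The members' median log2 fold change was 0.03, against -0.02 for those genes. Changes of at least 2-fold passed the test in 4 members that rose and 5 that fell (5.19% and 6.49%), against 4.58% and 4.03% of those genes. The CPM ranges of the groups did not overlap for 39 of the 77 (20 higher and 19 lower with lipoic acid), against 58.2% of all such genes.

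Calls were scarcer at low levels, among the members as among all genes. Of the 30 members under a mean of 2 CPM, 2 rose and 2 fell, where 8.89% of all genes at that level rose and 11.9% fell. Of the 29 members at 2 to 10 CPM, 6 rose and 7 fell (19.5% and 20.5% of all genes). Of the 18 at 10 CPM or above, 7 rose and 3 fell (25.8% and 26.1% of all genes). With a trend in GC content and transcript length removed from each library, the split of the members became 11 higher and 15 lower. That of all genes became 2622 higher and 3735 lower, against 3329 and 3205 without the removal. The 15 that rose had a median exonic length of 4484 bp and 43.2% GC, and the 12 that fell 2515 bp and 47.3% GC. Leaving out lipoic acid library 3 left 9 rises, against 11 to 14 without any other library.

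**Figure D1:**
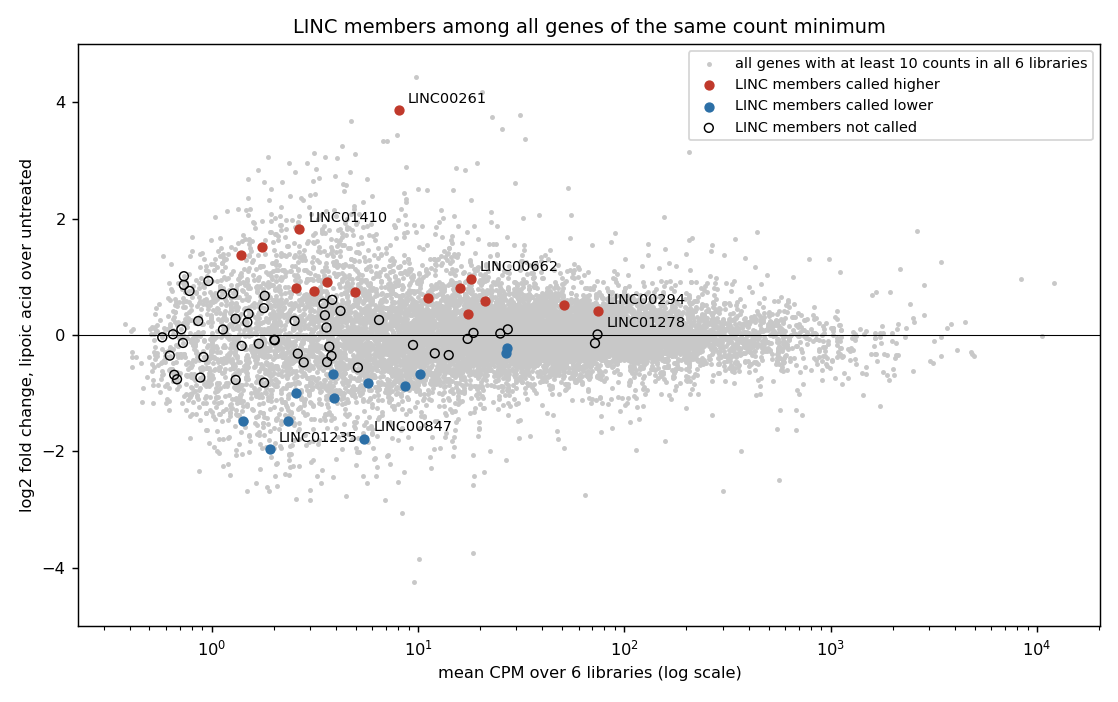
Log2 fold change, lipoic acid over untreated, against mean CPM on a log axis, for the 77 members with at least 10 counts in all 6 libraries (red called higher, blue called lower, open circles not called) and for all 12156 genes under the same minimum (grey). Most members lie within the cloud of all genes, and LINC00261 stands near its upper edge at a log2 fold change of 3.87.

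LINC00261 (chromosome 20, 22547671 to 22578642, minus strand, GRCh38, lincRNA) is transcribed next to FOXA2. It has been reported in human embryonic stem cells to promote FOXA2 expression as endoderm forms, a link that was not tested here. It had 13.7, 20.3 and 11.3 CPM in lipoic acid libraries 1 to 3, against 1.42, 0.432 and 1.23 CPM in untreated libraries 1 to 3. All lipoic acid libraries stood far above all untreated libraries (15.1 ± 4.64 against 1.03 ± 0.522 CPM, SD, n = 3 each; log2 fold change 3.87 ± 0.37 SE; adjusted p = 3.4e-05). The annotation gives 0.861 of its exonic length also to AL121722.1, a gene model on the same strand that is typed as protein-coding. Reads of the pair cannot be told apart over that shared length. AL121722.1, rather than FOXA2, was taken as the nearest protein-coding gene of LINC00261. The count table has no row under the name AL121722.1, so that neighbour was not tested. FOXA2, a forkhead factor of endoderm whose gene lies beyond a gap of 2363 bp, had 1.99, 3.73 and 3.72 CPM with lipoic acid, against 0.246, 0 and 0 CPM untreated. FOXA2 passed the test (adjusted p = 0.000729), with a fitted fold of 35.4 that was 12.6 within the even-count libraries, 84.7 with limma voom and 876 without untreated library 1, which holds its only untreated counts.

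Other endoderm markers moved with LINC00261. AFP, the fetal plasma protein, was at 60.1 ± 15.1 against 5.85 ± 1.47 CPM, TTR, which carries thyroid hormone, at 50.5 ± 13 against 8.27 ± 2.26 CPM, and APOB, of lipoproteins, at 15.5 ± 3.11 against 2.08 ± 0.593 CPM (SD, n = 3 each). Of the 10 genes on the endoderm and hepatic list, 9 were tested, 7 rose and 1, SOX17, fell. SOX17 also marks hemogenic endothelium. The list summed to 225 to 290 CPM with lipoic acid and 117 to 127 CPM untreated, and no member of it was at 0 in every library, although albumin (ALB) had at most 24 counts. The epithelial list rose in 5 of 6 tested genes and summed to 409 to 474 CPM, against 226 to 249 CPM untreated. The mesenchymal list fell in 4 of 7 tested genes and summed to 928 to 1326 CPM, against 1348 to 1712 CPM untreated. Of the other lists, the pluripotent one rose in 2 of 3 tested genes, and the neural one rose in 1 and fell in 2 of 4. On the blood list only ITGA2B was tested, and it rose (2.47 ± 0.285 against 0.66 ± 0.689 CPM, adjusted p = 0.0421). The part of cells of any of these types in the LINC00261 result was not tested. More cells of a type and more RNA per cell cannot be told apart in these bulk libraries.

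Of the other members that rose, 6 were called in all 19 other settings tried, as was LINC00261. LINC01410 (chromosome 9, 62801461 to 62813486) had 4.48, 4.75 and 3.24 CPM with lipoic acid, against 0.861, 1.63 and 1.03 CPM untreated, a 3.54-fold rise with no overlap (adjusted p = 0.00121). Its transcripts share 34.5% of their 50-base words with genes elsewhere, most with CR786580.1, so its counts are uncertain. LINC00662 (chromosome 19, 27684580 to 27793940) had 23.6, 25.6 and 22.3 CPM with lipoic acid, against 12.7, 11.6 and 12.2 CPM untreated. The libraries of each group lay close together and the rise was 1.96-fold (log2 fold change 0.97 ± 0.10 SE, adjusted p = 6.4e-05). LINC00648 (chromosome 14, 47764954 to 47795092) averaged 20.4 ± 2.36 CPM with lipoic acid and 11.6 ± 1.84 CPM untreated (1.75-fold, adjusted p = 0.00121). LINC01184 (chromosome 5, 127940426 to 128083172) averaged 25.5 ± 1.76 and 16.9 ± 1.63 CPM in the same order (1.51-fold, adjusted p = 0.00141).

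The remaining stable rises were in abundant members. LINC00294 (chromosome 11, 33076149 to 33079454), the member with the highest mean, had 80.5, 90.6 and 82.6 CPM with lipoic acid, against 58.8, 64.8 and 68 CPM untreated (1.32-fold, adjusted p = 0.002). Its body overlaps CSTF3 and TCP11L1, and 0.174 of its exonic length lies opposite another gene. LINC00641 (chromosome 14, 21200079 to 21206900) had 62.7, 58.7 and 59.1 CPM, against 46, 35.8 and 44.9 CPM untreated (1.42-fold, adjusted p = 0.00181). In both, every lipoic acid library stood above every untreated one.

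The other 8 rises each failed in at least 1 setting. LINC01234 averaged 2.59 ± 0.829 CPM with lipoic acid and 0.908 ± 0.401 CPM untreated, a 2.84-fold rise (adjusted p = 0.0128, and 0.0534 without lipoic acid library 2). LINC01480 averaged 2 ± 0.579 against 0.767 ± 0.284 CPM, a 2.6-fold rise (adjusted p = 0.0196, up to 0.0847 without lipoic acid library 3, and also lost without lipoic acid library 1 or within the even-count libraries). LINC01358 averaged 4.76 ± 0.978 against 2.52 ± 1.01 CPM (1.89-fold, 3.52-fold within the even-count libraries, adjusted p = 0.0409). The LINC01358 call was lost without lipoic acid library 1 or 3, without untreated library 1 or 3, or with the GC and length trend removed (adjusted p up to 0.148).

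LINC00622 (1.74-fold, adjusted p = 0.044) was lost in 8 settings. These were the fits without any 1 library other than untreated library 1, with a replicate block, within the even-count libraries and with the trend removed. LINC01232 (1.68-fold, adjusted p = 0.0269) was lost without lipoic acid library 3 or untreated library 1, within the even-count libraries and with the trend removed. LINC01138, reported to bind the methyltransferase PRMT5 in liver cancer cells, was at 13.6 ± 1.42 against 8.7 ± 1.66 CPM (1.56-fold, adjusted p = 0.00976) and was not called within the even-count libraries (adjusted p = 0.0895). LINC00909 (1.29-fold, adjusted p = 0.0134) was lost without lipoic acid library 3 and with the trend removed. LINC01089 (1.66-fold, adjusted p = 0.049) was the 1 rise whose groups overlapped, was lost within the even-count libraries and without any 1 library other than lipoic acid library 2, and shares 0.417 of its exonic length with a gene on the same strand. LINC00909 and LINC01089, like LINC01184 above, fall outside the naming rule and complete the count.

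Of the 12 members that fell, 8 were called in all 19 other settings. LINC00847 (chromosome 5, 180830957 to 180835726) had 2.79, 2.41 and 2.22 CPM with lipoic acid, against 7.75, 9.44 and 8.28 CPM untreated. Every lipoic acid library lay below every untreated one, a 3.43-fold fall (log2 fold change -1.78 ± 0.19 SE, adjusted p = 7.5e-05), and 0.21 of its exonic length lies opposite another gene. LINC01235 (chromosome 9, 13406380 to 13433053) had 0.897, 0.823 and 0.628 CPM, against 2.58, 4.32 and 2.26 CPM untreated (3.9-fold, adjusted p = 0.00172). LINC00504 (chromosome 4, 14470465 to 14888169) averaged 1.24 ± 0.274 against 3.45 ± 0.285 CPM (2.8-fold, adjusted p = 0.00222), with 22.5% of its 50-base words found in genes elsewhere. LINC00680, annotated as a transcribed pseudogene, averaged 0.747 ± 0.189 against 2.08 ± 0.15 CPM (2.77-fold, adjusted p = 0.00697).

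The other stable falls were smaller. LINC01090 averaged 2.52 ± 0.699 CPM with lipoic acid and 5.32 ± 0.2 CPM untreated, a 2.1-fold fall (adjusted p = 0.006), though 0.355 of its exonic length lies opposite another gene. LINC01537 averaged 6.08 ± 0.424 and 11.2 ± 0.724 CPM in the same order (1.84-fold, adjusted p = 0.000908). LINC01515 averaged 4.11 ± 0.125 and 7.29 ± 0.896 CPM (1.77-fold, adjusted p = 0.00393), and LINC00324 7.9 ± 0.217 and 12.6 ± 1.99 CPM (1.59-fold, adjusted p = 0.00455). None of these groups overlapped.

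Calls for the 4 other falls were less stable. LINC01128 was at 23.9 ± 1.6 against 29.5 ± 1.82 CPM (1.23-fold, adjusted p = 0.0188) and was lost within the even-count libraries and without lipoic acid library 1 or 2. LINC00963, first described in prostate cancer cells, was at 24.8 ± 1.19 against 29 ± 1.2 CPM (1.17-fold, adjusted p = 0.0432) and was lost in 9 settings, among them all leave-one-out fits but that without untreated library 2. LINC01137 (adjusted p = 0.0499) and LINC00920 (adjusted p = 0.0496) overlapped between groups and were lost in 7 and 9 settings. Both fall outside the naming rule and complete the count.

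**Figure D2:**
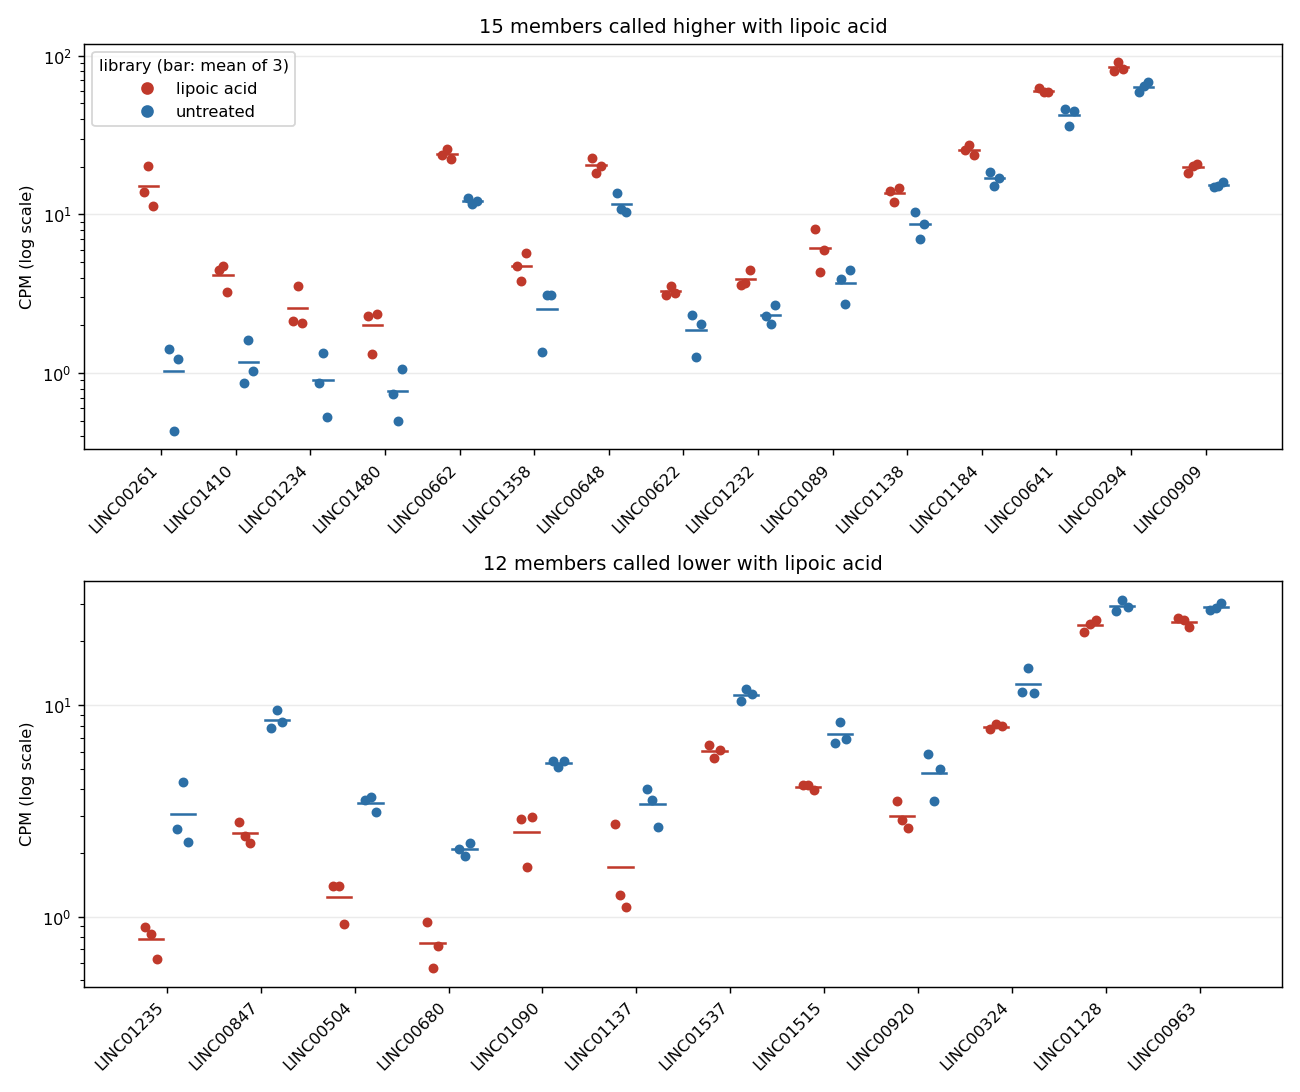
CPM on a log axis in each library (points) with the mean of 3 (bars) for the 15 members called higher and the 12 called lower, each ordered by fitted fold change, lipoic acid in red at the left and untreated in blue at the right of each pair. LINC00261 at 11.3 to 20.3 CPM with lipoic acid and 0.432 to 1.42 CPM untreated shows the widest gap.

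The 77 members summed to 707 to 727 CPM with lipoic acid and 635 to 685 CPM untreated, and the 5 with the highest means made up 43.7% to 44.4% and 42.1% to 43.4% of those sums. Per kilobase of exon, LINC00294 also had the highest level, at 25.6 CPM with lipoic acid and 19.3 CPM untreated, and LINC01278 followed at 11.7 and 11.6 CPM per kilobase. LINC01278 did not pass the test (74.4 ± 2.48 against 73.9 ± 4.02 CPM, adjusted p = 0.911), nor did LINC00665 (28.2 ± 2.29 against 26.3 ± 1.69 CPM, adjusted p = 0.411). LINC00667 was at 68.5 ± 6.79 against 75.6 ± 2.16 CPM (adjusted p = 0.173) and was called lower with the GC and length trend removed (0.0196).

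Of 28 LINC symbols listed for a described role, 16 were found in the table under that name, and 8 of those were members. LINC-PINT, a p53-induced RNA that binds the Polycomb complex PRC2, had 3.99, 3.92 and 4.5 CPM with lipoic acid and 4.92, 8.78 and 4.59 CPM untreated. The groups did not overlap, but 1 untreated library stood far above the others and the test was not passed (adjusted p = 0.105). LINC01578, the human CHASERR, which holds down its neighbour CHD2, was at 12.4 ± 1.75 against 15.8 ± 1.41 CPM (adjusted p = 0.0614) and was called lower by limma voom (0.0228) and with the trend removed (0.0102). LINC00467, repressed by MYCN in neuroblastoma cells, was at 2.74 ± 0.156 against 2.31 ± 0.0843 CPM (adjusted p = 0.436). LINC00632, from which the circular RNA CDR1as arises, was at 0.736 ± 0.491 against 0.691 ± 0.366 CPM (adjusted p = 0.906). LINC-ROR, an RNA of pluripotent cells, had no count in any library, as had LINC00458, LINC00520, LINC00862 and LINC01194. LINC00173, described in human granulocytes, had 24, 12 and 36 counts with lipoic acid against 4, 0 and 2 untreated, and LINC00305 had 4, 0 and 4 against 22, 24 and 10.

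Neighbouring protein-coding genes showed both shared and unlike directions. For the 15 members that rose, the nearest protein-coding gene was tested in 10 cases, of which 5 rose and 1 fell. For the 12 that fell, it was tested in 11 cases, of which 6 rose and 2 fell. For the 50 not called, it was tested in 37 cases, of which 9 rose and 6 fell. Over all tested genes the shares were 24.2% and 23.3%, and whether the neighbours differ from them was not tested. LINC00648 rose together with MDGA2, a neuronal adhesion protein gene beyond a gap of 90000 bp (2.97 ± 0.257 against 0.974 ± 0.283 CPM, 3.05-fold, adjusted p = 0.00241). LINC00504 fell together with CPEB2, which binds polyadenylation elements of mRNAs, beyond a gap of 114505 bp (13.5 ± 1.73 against 25.4 ± 4.51 CPM, 1.88-fold, adjusted p = 0.000712). LINC01515 fell where CTNNA3, an alpha-catenin gene, rose (13.1 against 4.07 CPM, 3.2-fold, adjusted p = 0.000122). LINC00847 fell where ZFP62, a zinc finger gene, rose (53.7 against 30.5 CPM, 1.76-fold, adjusted p = 2.5e-05).

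Members beside genes of the hemogenic programme were singled out after their values were seen. LINC01426, annotated as antisense, lies 2915 bp from RUNX1, the factor that starts blood formation from endothelium. LINC01426 had 1.94, 1.71 and 1.16 CPM with lipoic acid and 1.17, 0.831 and 2.13 CPM untreated, with overlapping groups (adjusted p = 0.693). RUNX1 rose 5.46-fold, to 14.4 ± 0.531 CPM against 2.63 ± 0.501 CPM untreated (adjusted p = 5.7e-06). LINC00920 lies 3738 bp past CDH5 on the same strand, and had 3.54, 2.85 and 2.61 CPM against 5.84, 3.52 and 4.99 CPM untreated (1.6-fold lower). The groups of LINC00920 overlapped, and its fall was called in only 10 of the 19 other settings. CDH5 fell 1.55-fold (556 ± 18.3 against 864 ± 127 CPM, adjusted p = 0.000344). LINC01607, admitted by lipoic acid alone with 18, 18 and 40 counts against 2, 4 and 9, starts 279 bp from HEY1 on the other strand. HEY1, a Notch target, fell 1.58-fold (223 ± 9.66 against 352 ± 28.6 CPM, adjusted p = 5.7e-05).

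Of the 77 members, 14 start within 2000 bp of a protein-coding gene on the opposite strand. Of the 13 such partners tested, 1 rose and 4 fell, where 24.2% of all tested genes rose and 23.3% fell. Whether the partners differ from those shares was not tested. LINC00909 rose with ZNF407, a zinc finger gene that it overlaps (6.84 against 4.26 CPM, adjusted p = 0.0128), and LINC01184 rose where SLC12A2, a chloride cotransporter gene, fell (58 against 74.4 CPM, adjusted p = 0.00697). LINC00667 and LINC00526 on chromosome 18 form a divergent pair whose bodies overlap by 773 bp. LINC00526 was admitted by the untreated group alone, with 12, 16 and 6 counts with lipoic acid against 36, 49 and 26 untreated. Of the 50-base words of LINC00526, 39.65% also occur in genes that overlap it, so its counts are uncertain.

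**Figure D3:**
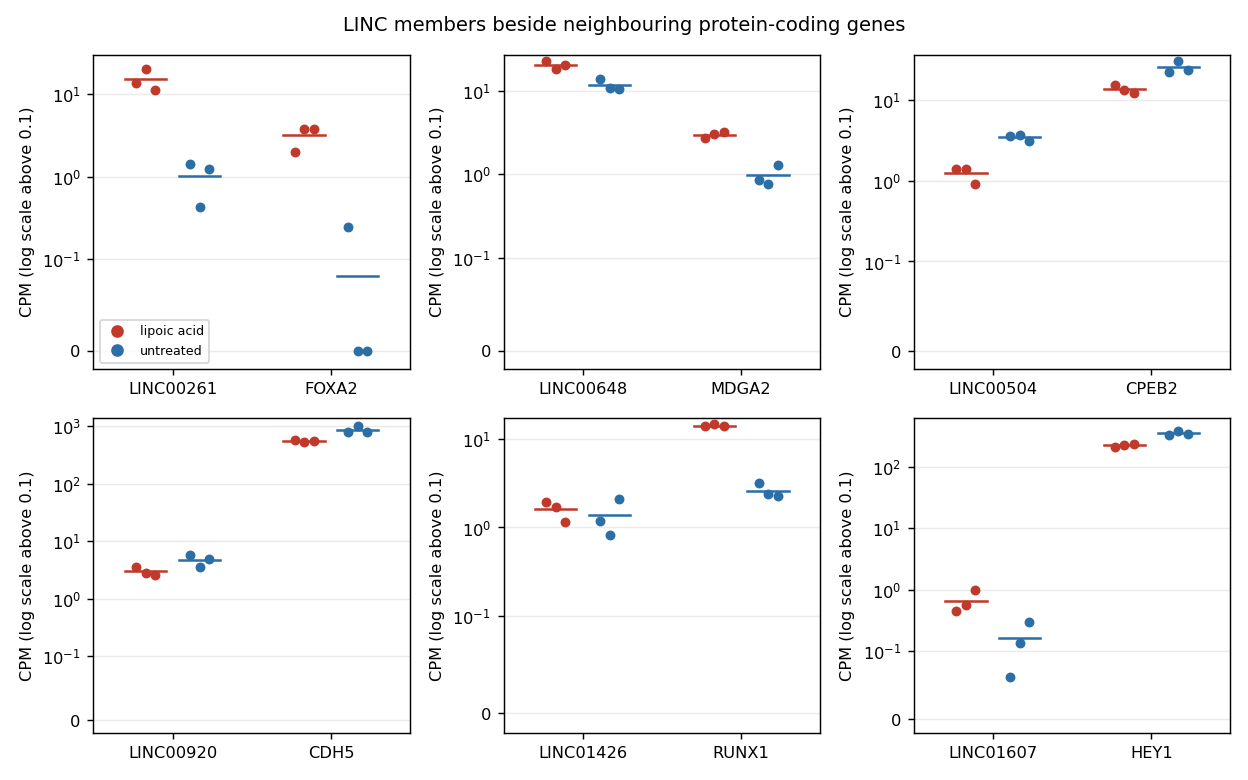
CPM in each library (points, mean as a bar; log axis above 0.1 CPM, linear below) of 6 members, each at the left of its panel, beside a neighbouring protein-coding gene, lipoic acid in red at the left and untreated in blue at the right. LINC00261 and FOXA2, and LINC00648 and MDGA2, were both higher with lipoic acid, LINC00504 and CPEB2 both lower, and LINC01426 overlapped between groups where RUNX1 did not.

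Members admitted by 1 group alone had to differ under the rule, so their values, raw counts as deposited, are a description without a test. Among the 48 admitted by lipoic acid, LINC00664 had 176, 120 and 218 counts against 52, 1 and 45 untreated. LINC00930 had 126, 90 and 80 counts against 0, 0 and 6, LINC01588 had 88, 64 and 92 against 22, 5 and 17, and LINC01473 had 88, 68 and 74 against 12, 4 and 12. LINC01352 had 90, 72 and 60 counts against 2, 6 and 7, and LINC00638 had 54, 88 and 60 against 2, 0 and 4. These 6 had the highest levels with lipoic acid of the 48. For 9 of the 48, every untreated library was at 0, where 3 counts over the group, even counts halved, correspond to 0.0393 CPM. Against that floor the mean of LINC01091 was at least 39.6-fold higher and that of LINC00846 at least 37.7-fold. The mean of LINC00607, described in endothelial cells, was at least 30.6-fold higher. Of the 50-base words of LINC00846, 57.4% also occur in genes that overlap it, so its counts are uncertain. LINC01091, LINC00846 and LINC00607 were chosen after their values were seen.

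Among the 22 admitted by the untreated group, LINC01252 had 34, 2 and 18 counts with lipoic acid against 36, 72 and 71 untreated. LINC00858 had 14, 0 and 14 counts against 54, 57 and 46, LINC01614 had 2, 0 and 22 against 40, 59 and 55, and LINC00639 had 30, 0 and 22 against 34, 51 and 53. LINC01215 was at 0 in every lipoic acid library against 64, 27 and 34 counts untreated, at least 25.1-fold lower against a floor of 0.053 CPM. LINC00461, which hosts the neural miRNA miR-9-2, had 4, 0 and 4 counts against 36, 39 and 32, and was chosen after its values were seen.

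Library 2 of either group decided much of this membership. Of the 48, 16 missed the minimum in the untreated group through untreated library 2 alone, and 21 were at 0 in that library, against 14 and 11 in untreated libraries 1 and 3. Over all 980 rows admitted by lipoic acid alone, 470 were at 0 in untreated library 2 and 209 and 207 in untreated libraries 1 and 3. Of the 22, 6 missed the minimum through lipoic acid library 2 alone, and 11 were at 0 there, against 4 and 2 in lipoic acid libraries 1 and 3. Over all 556 rows admitted by untreated alone, 217 were at 0 in lipoic acid library 2 and 100 and 108 in lipoic acid libraries 1 and 3. The part of the lower detection in these libraries was not tested. The 4 libraries with almost only even counts (lipoic acid 1 to 3, untreated 1) also bear on the rule, since 10 counts there may stand for fewer independent reads than in untreated libraries 2 and 3. With the counts of those libraries halved, a setting added after the data were seen, the rule admitted 116 members: 65 by both groups, 27 by lipoic acid alone and 24 by untreated alone. The excess of 48 over 22 thus depends on how the counts are read, and the raw counts of the groups are not on the same footing. Of the 147, 13 members sat exactly at the minimum. Just inside were LINC01218 (10, 10 and 12 counts against 0, 0 and 0), LINC01545 (12, 16 and 10 against 0, 1 and 0) and LINC01028 (0, 0 and 2 against 10, 10 and 12). Just outside were LINC01539 (2, 0 and 14 against 10, 14 and 9), LINC01389 (36, 6 and 22 against 26, 8 and 23) and LINC00174 (26, 18 and 8 against 18, 8 and 6).

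**Figure D4:**
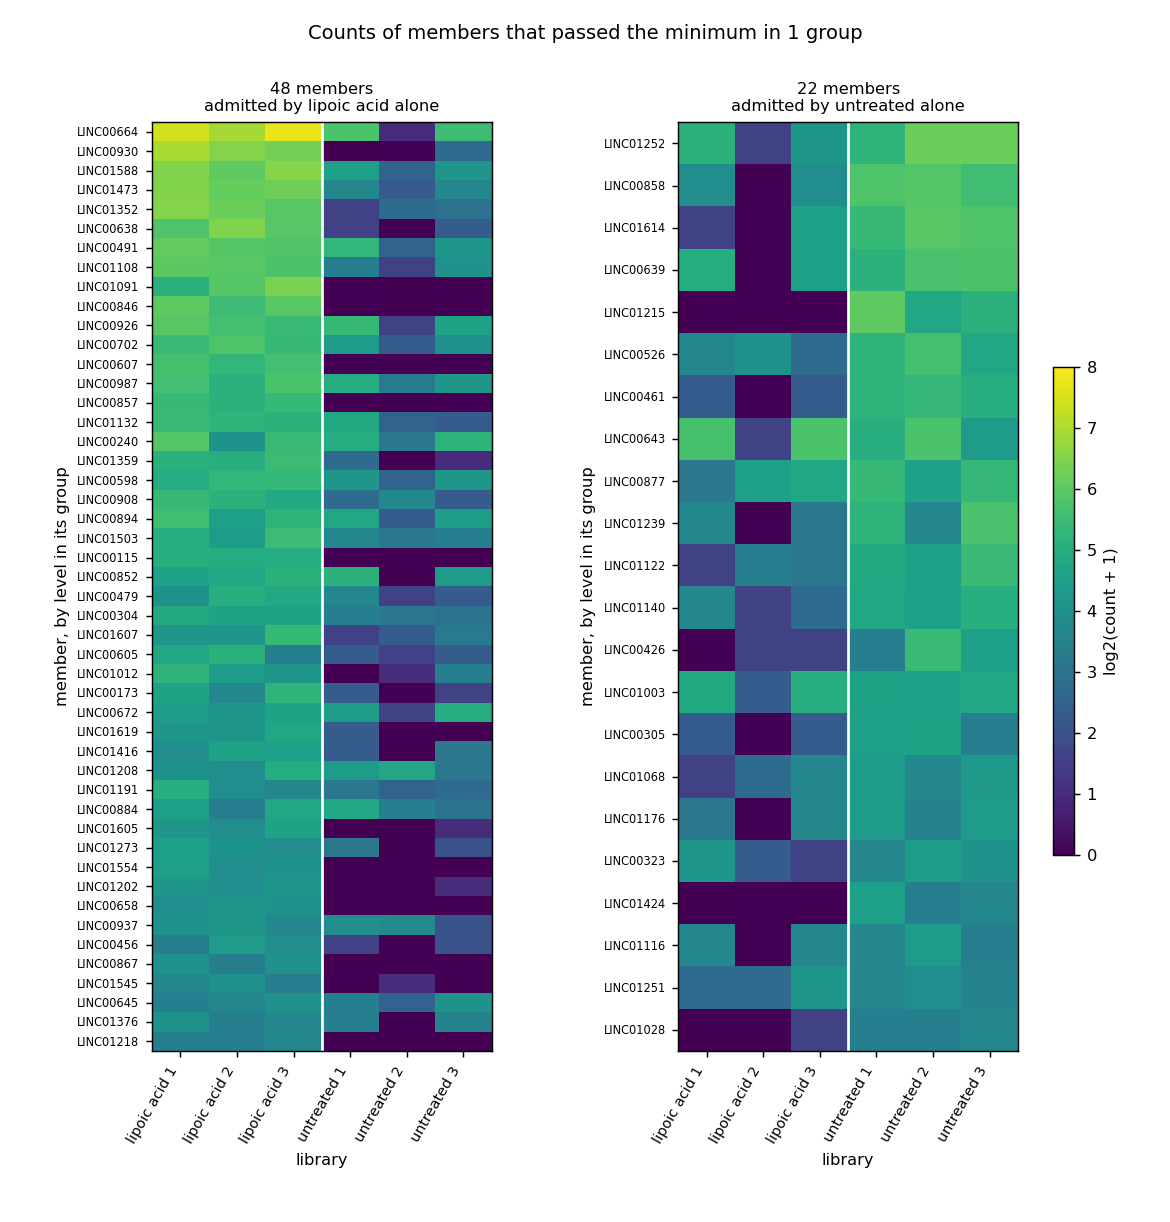
Counts as log2(count + 1) of the 48 members admitted by lipoic acid alone and the 22 admitted by untreated alone, in rows ordered by level, with the 3 lipoic acid libraries at the left of the 3 untreated ones. Library 2 of the group that did not admit a member is the darkest column, with 21 of the 48 and 11 of the 22 at 0.

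Beside other long noncoding RNAs, the members' calls were set without a test between classes. Over all 12156 genes under the same minimum, 23% rose and 23.7% fell, and of the 77 members 19.5% and 15.6%. Of 24 host genes of small RNAs, 12 rose and 1 fell (50% and 4.17%). Of 201 named antisense RNAs, 37 rose and 24 fell (18.4% and 11.9%). Of 49 clone-named rows, 3 rose and 9 fell (6.12% and 18.4%). From a list of 56 well-known long noncoding RNAs, 36 had the same minimum in all 6 libraries, of which 10 rose and 5 fell. SNHG1 and GAS5 carry small nucleolar RNAs in their introns. SNHG1 was at 119 ± 2.39 CPM with lipoic acid and 60.8 ± 7.39 CPM untreated (1.95-fold, adjusted p = 2.5e-05), and GAS5 at 143 ± 0.851 and 92.4 ± 5.89 CPM (1.54-fold, adjusted p = 5.2e-05). EPB41L4A-AS1 rose 2.07-fold, to 13.7 ± 1.22 CPM against 6.59 ± 0.224 CPM untreated (adjusted p = 0.000214). CASC15 fell 2.49-fold, to 10.6 ± 1.27 CPM against 26.5 ± 3.58 CPM (adjusted p = 4.7e-05), and MIR4435-2HG 1.56-fold, to 51.4 ± 1.13 CPM against 80.2 ± 10.8 CPM (adjusted p = 0.000467). HOTTIP, transcribed from the end of the HOXA cluster, had 34, 46 and 66 counts with lipoic acid and 0 in every untreated library, at least 33.1-fold higher against the floor.

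The word intergenic held for most but not all members. GENCODE annotates 112 of the 147 (76.2%) as lincRNA, 13 as antisense, 12 as processed transcripts and 1, LINC00672, as protein-coding. The bodies of 34 overlap a protein-coding gene, and 60 share some exonic length with another gene, 19 of them at least 20% of it. Among the 55 tested lincRNAs 11 rose and 8 fell, and among the 22 tested members of other types 4 rose and 4 fell. Of the 21 tested members whose body overlaps a protein-coding gene, 7 rose and 1 fell. The background under the same minimum was 23% higher and 23.7% lower, and no difference between these classes was tested. The strand setting of the counting was not given in the sources used here, so reads of a member and of a gene opposite it cannot be told apart. At least 20% of the 50-base words of 8 members occur in genes elsewhere, and LINC00342, LINC00623 and LINC00869, named for this sharing, were not called.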

How the data were processed

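RNA was measured in 3 lipoic acid and 3 untreated libraries. The deposited values are raw counts by gene symbol. The submitters' processing notes name HISAT2, featureCounts, DESeq2 and the build hg38. Their versions and options, the gene models and the strand setting are not given in the sources used here. The labels do not say that replicates came from separate cultures, so p-values reflect the spread among the libraries alone, and that spread may be technical. Total counts ran from 30041494 to 41351951. The cDNA was amplified without stated molecular identifiers, so floors (3 counts per group) cover counting error only.

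The whole table was fitted in R 4.3.3 with edgeR 4.0.16 (filterByExpr by group, TMM scaling, quasi-likelihood F test with group alone, Benjamini-Hochberg over 13780 genes, calls at an adjusted p under 0.05). CPM are on TMM-scaled library sizes, and folds are fitted unless given as bounds. Members that only 1 group admitted stayed in the fit where they passed its filter, but their test results were set aside and are not used. Alternatives used DESeq2 1.42.0, limma 3.58.1 (voom), other scalings and filters, robust empirical Bayes, a replicate block, and each library left out. Others used counts of the even-count libraries halved or used alone, mitochondrial genes removed, and a GC and length trend removed (13768 genes). A further setting kept the main fit at an adjusted p under 0.1, where a call made at 0.05 cannot be lost.

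Positions, types and overlaps were taken from GENCODE v29 (GRCh38), where all 908 LINC symbols were found (3 members share a symbol with a second gene), and promoters from RefSeq GRCh38.p14, which held 92 of the 147 members. Shared 50-base words were counted over all GENCODE transcripts on both strands. The members and lists were chosen with earlier results of these data known. The genes named are the 10 largest rises and falls without overlap, the 5 highest means, the 6 highest members of each 1-group set, members with a described role, their nearest protein-coding genes, up to 6 other long noncoding RNAs with the lowest p, the gate genes, and those singled out in the text.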

Additional observations from a re-analysis of the deposited data

How the results depend on the processing

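Over 19 other settings the counts of calls stayed within 1.5 times of those reported, except that leaving out lipoic acid library 3 left 9 members higher. Leaving out each library in turn gave 9 to 14 members higher and 8 to 14 lower. Of the 15 rises 7, and of the 12 falls 8, were called in every setting. Over 68 tested genes named by the rule, 1225 of 1289 gene and setting pairs stayed on the same side of the threshold, 55 lost the call and 8 gained it. The sign of genes that were not called changed in 24 pairs, over 13 genes. A called value changed sign in 1 pair: SEC23A, the nearest protein-coding gene of LINC00639, had a log2 fold change of -0.00647 with the GC and length trend removed (adjusted p = 0.951). That removal moved the median of all genes to -0.08. Minimums of 5 and 20 counts gave 18 and 12 members higher and 13 and 11 lower. Applying the rule to counts halved in the even-count libraries, a setting added after the data were seen, gave 27 members admitted by lipoic acid alone and 24 by untreated alone, against 48 and 22. Within the even-count libraries untreated library 1 stands alone for its group, with its spread taken from the lipoic acid libraries.

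With the replicate number as a block, 14 members were higher and 10 lower, and 3354 and 3203 of all genes. Same-numbered libraries correlated at 0.0598, 0.0602 and 0.0783 in their deviations from group means, and the other pairs at -0.0579 to 0.0094. Each library thus correlated best with its own number, though weakly. Whether a number marks a shared culture or batch cannot be told from these values. The cause of these changes was not tested.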
